A study of Mus musculus with 16 samples.

Results

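The latent TGF-beta binding proteins are a family of 4 secreted glycoproteins, encoded in the mouse by Ltbp1, Ltbp2, Ltbp3 and Ltbp4. All 4 genes were found by symbol among the 23306 genes of the deposited table, and all 4 passed the filter on low values. The family was chosen by its measured values, namely the higher level of Ltbp4 after hormone treatment, so the hormone differences of its members are given here as a description, with no test. The libraries were bulk RNA-seq of mouse endometrial epithelial organoids, which are gland-like structures grown in culture from the lining of the uterus. They fall into 4 groups of 4 libraries. The Tgfbr2 cKO organoids are labelled Tgfbr2 PRcre+, that is, they carry Cre recombinase driven by the progesterone receptor gene together with the conditional Tgfbr2 alleles. The control organoids are labelled Tgfbr2 FF, the floxed alleles without a Cre label. Hormone-treated organoids received 10 nM estradiol (E2) for 2 days and then 10 nM E2 plus 1 µM of the synthetic progestin medroxyprogesterone acetate (MPA) for 4 days. Vehicle organoids were treated for 6 days, and all organoids were first cultured for 2 days. The groups are thus cKO with E2/MPA (libraries M13 to M16), control with E2/MPA (M9 to M12), cKO with vehicle (M5 to M8) and control with vehicle (M1 to M4). Because Cre is named only in the cKO groups, the presence of Cre and the loss of Tgfbr2 cannot be told apart. No label ties a library to an animal, and p-values therefore reflect only how far these libraries spread, which may be technical.

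TGF-beta is secreted in a latent form, in which the mature growth factor stays wrapped in its own propeptide. In the endoplasmic reticulum a latent TGF-beta binding protein can be joined to that propeptide by disulfide bonds, and the resulting large complex is then laid down on fibronectin and fibrillin microfibrils outside the cell. Integrins that pull on the propeptide, and proteases that cut the complex, release the growth factor to its receptors, of which TGFBR2 is the one that binds the ligand first. LTBP1 and LTBP3 carry the latent forms of TGF-beta, LTBP4 binds latent TGF-beta1 weakly, and LTBP2 is not known to bind latent TGF-beta. LTBP2 and LTBP4 are better known as matrix proteins, LTBP2 of microfibrils such as those that hold the eye lens and LTBP4 of elastic fibres, where it works with fibulin-5. In the uterus, estrogen and progesterone act in turn on the epithelium and the stroma and remodel both through the cycle.

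The promoter windows of the members are shown because the 4 genes did not share a direction under E2/MPA, with Ltbp4 higher and the other members lower. RefSeq lists 7 start sites for the 4 genes on build GRCm38.p6, with 2 for Ltbp1, 1 each for Ltbp2 and Ltbp3 and 3 for Ltbp4. The first Ltbp4 start site lies 3949 bases upstream of the next one, and the 2 Ltbp1 start sites lie 173252 bases apart. The counts are totals per gene and do not separate transcripts from different start sites. Each sequence below is the 250 bases before a start site, read 5′ to 3′ on the gene's own strand, and capitals mark GC boxes (GGGCGG) and CCAAT boxes on either strand. The windows are Ltbp4 upstream at chr7:27337613-27337862 on the minus strand, Ltbp4 downstream at chr7:27333664-27333913 on the minus strand, Ltbp1 upstream at chr17:75005279-75005528 on the plus strand and Ltbp3 at chr19:5740650-5740899 on the plus strand.
Ltbp4 upstream: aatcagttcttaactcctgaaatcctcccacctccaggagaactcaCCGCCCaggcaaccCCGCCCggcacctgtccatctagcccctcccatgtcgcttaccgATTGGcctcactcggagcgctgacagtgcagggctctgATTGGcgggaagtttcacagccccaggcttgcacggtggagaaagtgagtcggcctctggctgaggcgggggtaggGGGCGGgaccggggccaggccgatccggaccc
Ltbp4 downstream: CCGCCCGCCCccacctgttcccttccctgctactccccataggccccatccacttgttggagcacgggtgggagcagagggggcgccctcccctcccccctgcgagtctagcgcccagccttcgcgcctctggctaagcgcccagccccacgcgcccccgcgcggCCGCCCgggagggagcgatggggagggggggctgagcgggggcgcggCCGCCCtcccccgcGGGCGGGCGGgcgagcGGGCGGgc
Ltbp1 upstream: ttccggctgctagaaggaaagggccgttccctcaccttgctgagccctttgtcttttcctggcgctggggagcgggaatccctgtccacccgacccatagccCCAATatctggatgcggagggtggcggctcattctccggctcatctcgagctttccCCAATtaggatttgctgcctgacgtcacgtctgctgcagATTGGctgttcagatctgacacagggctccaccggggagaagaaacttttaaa
Ltbp3: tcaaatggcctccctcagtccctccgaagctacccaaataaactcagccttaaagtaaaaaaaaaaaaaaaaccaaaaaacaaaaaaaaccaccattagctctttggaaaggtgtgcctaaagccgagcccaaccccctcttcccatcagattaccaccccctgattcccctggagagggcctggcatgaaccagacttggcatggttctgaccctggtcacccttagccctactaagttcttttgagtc
The upstream Ltbp4 window held 3 GC boxes and 2 CCAAT boxes, and the downstream window held 7 GC boxes and no CCAAT box, counting overlapping copies. The upstream Ltbp1 window held 3 CCAAT boxes and no GC box, and the Ltbp3 window held neither motif. G and C made up 64.4% of the upstream and 79.2% of the downstream Ltbp4 window, 56.8% of the Ltbp1 window and 47.2% of the Ltbp3 window, against a median of 52.4% over the 32851 windows of all RefSeq start sites. A GC box was present in 32.7% and a CCAAT box in 33.8% of those windows. Among the family windows not printed, that of Ltbp2, a lower member, had 61.6% G and C, 2 GC boxes and no CCAAT box. The second Ltbp1 window had 50.8% and neither motif, and the remaining Ltbp4 window had 79.2%, 5 GC boxes and no CCAAT box. That Ltbp4 window, at chr7:27333649-27333898, is nearly the same stretch as the printed downstream one, and its 5 GC boxes are among those already counted there. Motifs of the hormone receptors and of SMAD proteins were searched on both strands. The element of the progesterone and glucocorticoid receptors was taken as AGAACA followed, after 3 bases, by its reverse complement, that of the estrogen receptor as GGTCA followed, after 3 bases, by its reverse complement, and the SMAD palindrome as GTCT followed directly by its reverse complement. None of the 7 windows of the family held any of them, and none held the single core AGAACA or AGGTCA. The shorter arms GGTCA and GTCT were not searched alone. GGTCA occurs in the printed Ltbp3 window and GTCT in the printed Ltbp1 window, among others. Over all windows the 3 elements were present in 0.00913%, 0.0639% and 0.167%, and the cores in 16.1% and 14.0%. Elements this rare are absent from nearly all windows, and the absence of these elements and cores from 250 bases says nothing about binding elsewhere.

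The values below are normalized read counts, that is, reads assigned to a gene divided by the size factor of the library. Ltbp3 and Ltbp1 were the abundant members and Ltbp2 and Ltbp4 the scarce ones. Before normalization, a library held 2664 to 5845 reads of Ltbp3, 1325 to 5537 reads of Ltbp1, 61 to 372 reads of Ltbp2 and 16 to 179 reads of Ltbp4, so counting error weighs most on Ltbp4. To set levels of different genes side by side, the normalized counts were divided by the length of the longest coding transcript, in kilobases. Ltbp3 then averaged 704 ± 103 in cKO E2/MPA, 621 ± 52.6 in control E2/MPA, 924 ± 76.8 in cKO vehicle and 811 ± 99.2 in control vehicle organoids (normalized counts per kilobase, SD, n = 4 each). Ltbp1 came next on the same per-kilobase scale, with 326 ± 39.7 in cKO E2/MPA, 265 ± 67.9 in control E2/MPA, 585 ± 77.3 in cKO vehicle and 547 ± 67.5 in control vehicle organoids (SD, n = 4 each). Ltbp3 was above Ltbp1 in all 16 libraries, and both were above Ltbp2 and Ltbp4 in all 16. Ltbp2 averaged 14.8 ± 5.84 in cKO E2/MPA, 16.1 ± 2.62 in control E2/MPA, 24.8 ± 6.89 in cKO vehicle and 33.9 ± 11.6 in control vehicle organoids (normalized counts per kilobase, SD, n = 4 each). Ltbp4 averaged 10.4 ± 5.98 in cKO E2/MPA, 28.3 ± 1.35 in control E2/MPA, 4.95 ± 2.43 in cKO vehicle and 8.29 ± 6.11 in control vehicle organoids on that scale (SD, n = 4 each). The place of the scarce pair was exchanged in 1 group. Ltbp4 was above Ltbp2 in 4 of 4 control E2/MPA libraries and below it in 4 of 4 libraries of each other group.

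Summed over the family, the level per kilobase was 1055 ± 92.3 in cKO E2/MPA against 1539 ± 67.1 in cKO vehicle organoids, and 931 ± 75.2 in control E2/MPA against 1400.04 ± 106 in control vehicle organoids (SD, n = 4 each). The sum follows Ltbp3 and Ltbp1. Ltbp3 made up 66.6% of it in cKO E2/MPA, 66.9% in control E2/MPA, 60.0% in cKO vehicle and 57.8% in control vehicle organoids, and Ltbp1 made up 31.0%, 28.3%, 38.0% and 39.2% in the same groups. Ltbp4 made up 0.986% ± 0.571 in cKO E2/MPA, 3.05% ± 0.129 in control E2/MPA, 0.322% ± 0.154 in cKO vehicle and 0.598% ± 0.457 in control vehicle organoids (SD, n = 4 each). Its share in single libraries was 2.88% to 3.19% in control E2/MPA organoids and at most 1.77% in any library of the other groups.

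**Figure D1:**
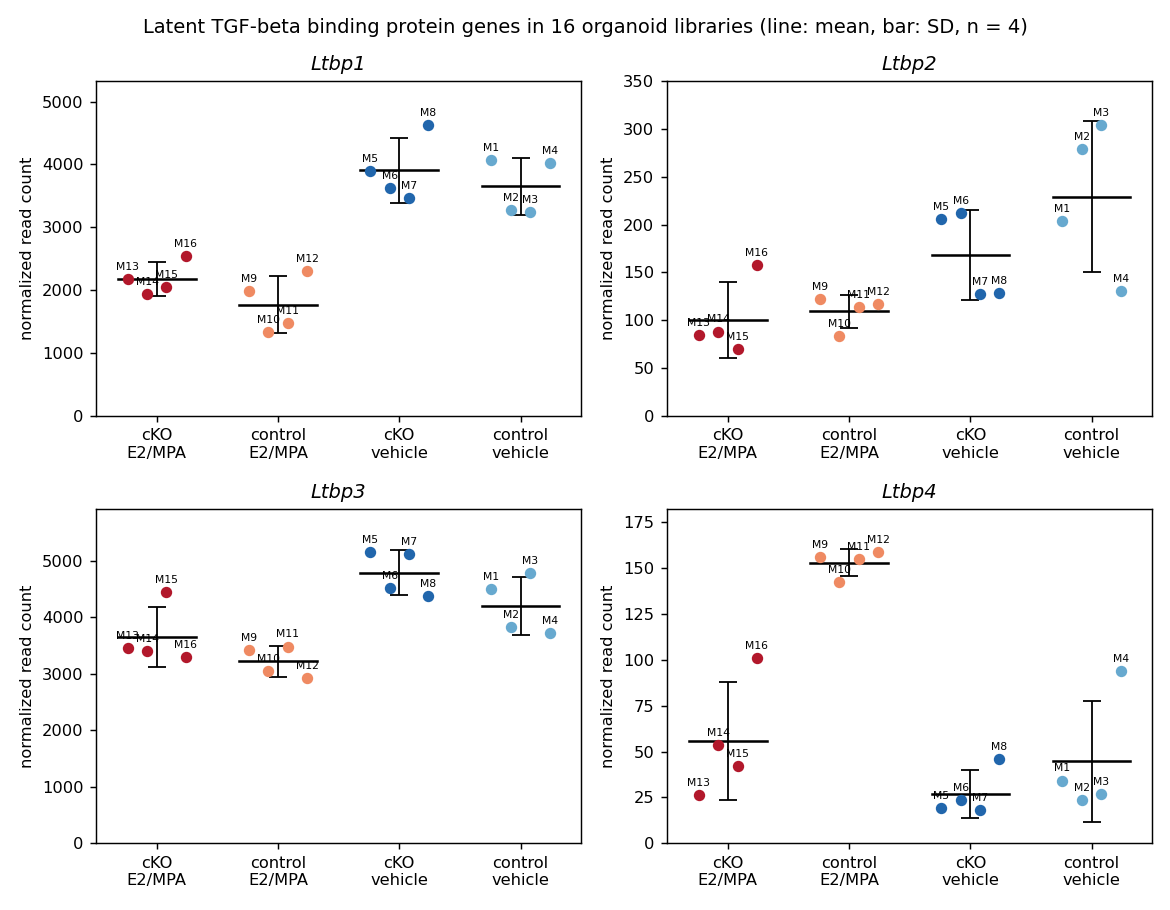
Normalized read counts of the 4 family members, 1 panel per gene, in the 4 groups of 4 libraries; points are libraries, and bars mark the mean and SD. The 4 control E2/MPA libraries of Ltbp4 sit between 142 and 158, above every library of the other groups, while Ltbp1, Ltbp2 and Ltbp3 are lower on average with E2/MPA than with vehicle in both genotypes.

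Ltbp4, the elastic-fibre member, had 155.6, 142, 155 and 158 normalized counts in control E2/MPA libraries M9 to M12, against 34.2, 23.7, 27.0 and 93.6 in control vehicle libraries M1 to M4. The groups do not overlap, and the control E2/MPA libraries lie close together, with a mean of 153 ± 7.28 against 44.6 ± 32.9 in control vehicle organoids (SD, n = 4 each). The ratio of these means is 3.42, and the fitted log2 difference is 1.98 (SE 0.44) on the log2(value + 1) scale. In cKO organoids Ltbp4 had 26.2, 53.7, 42.2 and 101 normalized counts in E2/MPA libraries M13 to M16, against 19.1, 23.5, 18.1 and 46.0 in vehicle libraries M5 to M8. Here the groups overlap, since M13 is below M8, and the means were 55.8 ± 32.2 in cKO E2/MPA and 26.7 ± 13.1 in cKO vehicle organoids (SD, n = 4 each). The ratio of these means is 2.09 and the fitted log2 difference is 0.97 (SE 0.44). In organoids, as in any bulk sample, fewer cells that express a gene and less of its RNA per cell cannot be told apart.

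Ltbp1, a main carrier of latent TGF-beta, had 1981, 1325, 1470.1 and 2302 normalized counts in control E2/MPA libraries M9 to M12, against 4064, 3276, 3247 and 4017 in control vehicle libraries M1 to M4. Every control E2/MPA library was below every control vehicle library, with means of 1770 ± 453 and 3651 ± 450.3 (SD, n = 4 each) and a ratio of means of 0.485. In cKO organoids Ltbp1 had 2178, 1934, 2048 and 2544 in E2/MPA libraries M13 to M16, against 3895, 3626, 3468 and 4632 in vehicle libraries M5 to M8. These groups do not overlap either, with means of 2176 ± 265 in cKO E2/MPA and 3905 ± 516 in cKO vehicle organoids (SD, n = 4 each) and a ratio of 0.557. The fitted log2 differences of Ltbp1 were -0.84 (SE 0.16) in cKO and -1.07 (SE 0.16) in control organoids. Ltbp1 was the single member whose libraries were apart in both genotypes. The share of all genes apart in both was not counted, so nothing is read from this.

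Ltbp3, the other main carrier, had 3423, 3056, 3486 and 2929 normalized counts in control E2/MPA libraries M9 to M12, against 4497, 3830.0, 4783 and 3719 in control vehicle libraries M1 to M4. The groups do not overlap, though the highest control E2/MPA library and the lowest control vehicle library lie near each other, and the ratio of means is 0.766. In cKO organoids Ltbp3 had 3457, 3411, 4449.9 and 3299 in E2/MPA libraries M13 to M16, against 5152, 4529, 5116 and 4376 in vehicle libraries M5 to M8. Library M15 alone reaches into the range of the cKO vehicle libraries, and the ratio of means is 0.762. The fitted log2 differences of Ltbp3 were -0.40 (SE 0.11) in cKO and -0.38 (SE 0.11) in control organoids.

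Ltbp2, the member not known to bind latent TGF-beta, had 122, 83.0, 114 and 117 normalized counts in control E2/MPA libraries M9 to M12, against 203, 279, 304 and 130.4 in control vehicle libraries M1 to M4. The groups are apart by a narrow gap between M9 and M4, and the ratio of means is 0.476. In cKO organoids Ltbp2 had 84.5, 88.1, 69.5 and 158 in E2/MPA libraries M13 to M16, against 205, 212, 128 and 128 in vehicle libraries M5 to M8. Library M16 lies above 2 of the 4 cKO vehicle libraries, so the groups overlap, and the ratio of means is 0.595. The fitted log2 differences of Ltbp2 were -0.77 (SE 0.29) in cKO and -1.01 (SE 0.29) in control organoids.

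With E2/MPA against vehicle, all 4 members thus had groups that do not overlap in control organoids, Ltbp4 higher and 3 members lower. Over the 16509 genes tested, 6.66% were apart and higher and 5.49% apart and lower in that comparison. In cKO organoids 1 of 4 members, Ltbp1, was apart and lower, where 5.80% of all genes were. The family was chosen with this contrast in view, so nothing is read from these counts.

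**Figure D2:**
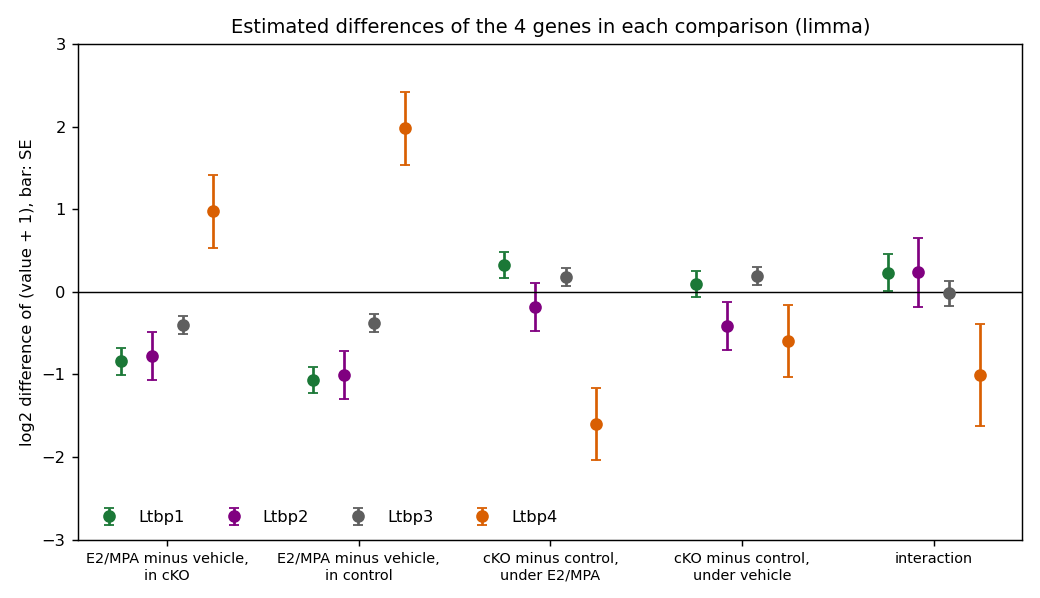
Fitted log2 differences of the 4 members, on the log2(value + 1) scale, for E2/MPA against vehicle in each genotype and for cKO against control under each treatment, with the interaction at the right; bars are standard errors. Ltbp4 is the single member above 0 in the hormone comparisons, at 0.97 in cKO and 1.98 in control organoids, and has the lowest value in the genotype comparison under E2/MPA, at -1.60.

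The comparison of cKO with control organoids asks how the family differs when the receptor that LTBP-bound TGF-beta finally acts on is targeted in the epithelium. Under E2/MPA, Ltbp4 was lower in every cKO library than in every control library, with 26.2 to 101 normalized counts in cKO and 142 to 158 in control organoids. The ratio of means is 0.365 and the log2 difference -1.60 (SE 0.44). For this value the exact two-sided permutation test over libraries gave p = 0.0286, the smallest p that 4 libraries against 4 allow. With limma and Benjamini-Hochberg adjustment over all 16509 genes the adjusted p was 0.202 (unadjusted 0.00237), so Ltbp4 did not pass the threshold of 0.05. The same 4 control E2/MPA libraries are the high group of the hormone difference for which the family was chosen, which makes this comparison not fully independent of that choice. Of all genes tested, 2.35% were apart and lower in cKO under E2/MPA, and 0.00606% passed the limma threshold, that is 1 gene. The adjusted p of Ltbp4 depended on how the libraries were handled. It was 0.0845 with DESeq2, 0.271 with edgeR, 0.0211 with library weights and 0.0226 with the mean stroma marker level as a covariate, and ranged from 0.141 to 0.529 when 1 library was left out.

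The other members overlapped between genotypes under E2/MPA. Ltbp1 averaged 2176 ± 265 in cKO and 1770 ± 453 in control organoids (SD, n = 4 each), a log2 difference of 0.33 (SE 0.16) with a limma adjusted p of 0.481. That difference was 0.34 with an adjusted p of 0.0388 once stroma marker level was a covariate, and 0.56 with an adjusted p of 0.00252 without the 6 libraries with the highest stroma marker sums. Leaving out those 6 was decided after the data were seen and leaves 2 libraries in some groups. It gave 1394 called genes in this comparison, against 1 in the main fit. Ltbp3 averaged 3654 ± 535 in cKO and 3223 ± 273 in control organoids (SD, n = 4 each; log2 difference 0.17, SE 0.11, limma adjusted p = 0.600). Ltbp2 averaged 100.03 ± 39.5 in cKO and 109 ± 17.7 in control organoids (SD, n = 4 each; log2 difference -0.18, SE 0.29, limma adjusted p = 0.889). The exact permutation p was 0.229 for Ltbp1, 0.257 for Ltbp3 and 0.571 for Ltbp2.

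Under vehicle no member was apart between genotypes, where 3.01% of all genes were, and none passed the limma threshold. Ltbp4 averaged 26.7 ± 13.1 in cKO vehicle and 44.6 ± 32.9 in control vehicle organoids (SD, n = 4 each), a log2 difference of -0.60 (SE 0.44; limma adjusted p = 0.892, exact permutation p = 0.314). Ltbp2 averaged 168 ± 46.7 in cKO vehicle and 229 ± 78.6 in control vehicle organoids (SD, n = 4 each), a log2 difference of -0.41 (SE 0.29; limma adjusted p = 0.888, exact permutation p = 0.286). Ltbp1 and Ltbp3 differed by 0.10 (SE 0.16) and 0.19 (SE 0.11), with limma adjusted p of 0.963 and 0.841. Over all genes limma made 0 calls in this comparison, with 984 genes at an unadjusted p under 0.05, edgeR made 0 calls and DESeq2 made 14.

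Whether the hormone difference itself depended on genotype was tested with the interaction term, which is cKO minus control of the 2 hormone differences. The estimate was -1.01 (SE 0.62) for Ltbp4, 0.23 (SE 0.22) for Ltbp1, 0.23 (SE 0.41) for Ltbp2 and -0.02 (SE 0.15) for Ltbp3. The limma adjusted p was 1.00 for all 4, and the unadjusted p for Ltbp4 was 0.125. The interaction of Ltbp4 contains the hormone difference in control organoids for which the family was chosen, so its test is not independent of that choice. The larger hormone difference of Ltbp4 in control organoids was not distinguished from that in cKO organoids beyond the spread between libraries. Over all genes limma, edgeR and DESeq2 each made 0 interaction calls, with 309 genes at an unadjusted limma p under 0.05.

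The organoids are labelled epithelial, and the summed level of 5 epithelial markers (Cdh1, Epcam, Krt8, Krt18, Krt19) was between 75223 and 132305 normalized counts in all libraries. Markers of stromal fibroblasts were present too, and unevenly. The sum of the 11 of 11 stroma markers in the table was 2774 to 39536 in cKO E2/MPA, 1773 to 45755 in control E2/MPA, 1987 to 24557 in cKO vehicle and 971 to 58465 in control vehicle organoids. Libraries M16, M12, M8 and M4 had the highest sum of their groups, with M9 at 21145 and M1 at 13308 next. The collagens were detected in every library, while Lum was at 0 in 2 libraries and Thy1 in 1. Smooth muscle markers summed to 33.0 to 2285, endothelial markers to 26.3 to 545 and macrophage markers to 1672 to 3316. Most of the macrophage sum was Cd68, with group means of 1817 to 2477. The group means were 195 to 449 for Csf1r, 24.3 to 136 for Adgre1 and 31.7 to 54.0 for Ptprc, so that sum mainly follows 1 gene. Depth was 14372111 to 20016836 reads per library. Tgfbr2 itself had 3520 to 5526 normalized counts in cKO and 4103 to 8054 in control libraries, with log2 differences of -0.28 under E2/MPA and -0.46 under vehicle (limma adjusted p = 0.690 and 0.833). A gene total includes exons outside the deleted part, so this does not check the genotype label.

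The members followed the stroma markers to different degrees. Ltbp4 was highest of its group in all 4 of the libraries M16, M12, M8 and M4, and Ltbp3 was lowest of its group in all 4. Ltbp1 was highest in 3 of them, and in M4 it was just below M1. Ltbp2 was highest in M16 and lowest in M4. As a description over 16 libraries, the deviations from the group means correlated with those of the mean log2 stroma marker level at Pearson r = 0.773 for Ltbp4, 0.893 for Ltbp1, -0.130 for Ltbp2 and -0.522 for Ltbp3. Among libraries with low stroma marker sums, the values of Ltbp4 were as follows. M10 and M11, with stroma marker sums of 1773 and 2332, had 142 and 155 normalized counts of Ltbp4. The cKO libraries M13, M14 and M15, with sums of 2774 to 4586, had 26.2 to 53.7, and the control vehicle libraries M2 and M3, with sums of 2097 and 971, had 23.7 and 27.0. Without M4, M8, M12 and M16 the hormone difference of Ltbp4 was 0.92 in cKO and 2.39 in control organoids on the log2 scale, and the genotype difference under E2/MPA was -1.92 with a limma adjusted p of 0.0288. Without the 6 libraries of highest sums, that genotype difference was -1.90 with an adjusted p of 0.00411, a choice made after the data were seen. In the main fit the limma adjusted p was 0.202. Leaving out M4, M8, M12 and M16 also takes the highest Ltbp4 value from every group. The fit without the 6 called 1394 genes in this comparison, against 1 in the main fit. The control E2/MPA libraries also enter the hormone difference for which the family was chosen, so these p-values are not independent of that choice.

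**Figure D3:**
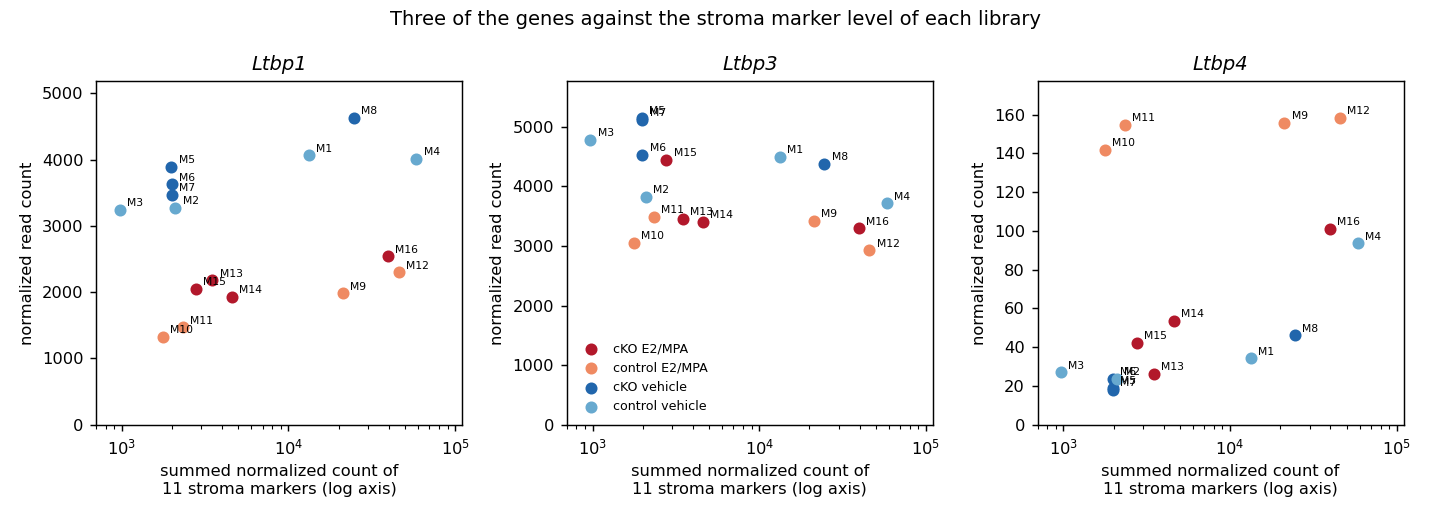
Normalized counts of Ltbp1, Ltbp3 and Ltbp4 against the summed normalized count of 11 stroma markers in the same library, with the marker sum on a log axis; points are libraries, coloured by group. Ltbp4 stays between 142 and 158 in control E2/MPA libraries whose marker sums span 1773 to 45755. In all 4 groups its highest value belongs to the library with the highest sum.

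Within the family, levels over the 16 libraries were described by Pearson r of log2(value + 1), where libraries share their group and their makeup. Ltbp4 ran opposite to Ltbp3 (r = -0.805) and less so to Ltbp1 (r = -0.616) and Ltbp2 (r = -0.446). After the group means were taken out, the value for Ltbp4 and Ltbp3 was -0.456 and that for Ltbp4 and Ltbp1 was 0.481, the opposite sign. Ltbp3 and Ltbp1 had r = 0.687 over all libraries and -0.304 within groups.

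The 5 genes whose levels were most like Ltbp4 over the 16 libraries were Postn (Pearson r = 0.935, Spearman rho = 0.935), Bdh1 (r = 0.931), Tacc1 (r = 0.930), Zfp597 (r = 0.911) and Rac3 (r = 0.909). Postn encodes periostin, a secreted matrix protein of connective tissue, and Rac3 a small GTPase of the cytoskeleton. With group means taken out, r with Ltbp4 was 0.870 for Postn and between 0.773 and 0.899 for the other 4. Ltbp1 was most like Btbd17 (r = 0.972), Robo1 (r = 0.969), Lamb1 (r = 0.968), Adgra3 (r = 0.964) and Ctnnb1 (r = 0.962). Lamb1 is a laminin chain of basement membranes, Robo1 a receptor for SLIT guidance proteins and Ctnnb1 beta-catenin. Ltbp3 was most like Cep250 (r = 0.959), Tecta (r = 0.942), Ctc1 (r = 0.940), Lrrc9 (r = 0.928) and Hlcs (r = 0.911), and Ltbp2 was most like Dph1 (r = 0.879), Slc19a1 (r = 0.870), Cdca7l (r = 0.841), Ppa2 (r = 0.823) and Fcf1 (r = 0.823). No gene was among the 5 of more than 1 member.

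The rest of the latent TGF-beta system was read from 4 lists with 41 genes in all, of which 37 were tested. Plg, Adamtsl2 and Adamtsl3 were not analysed here, and Mfap4 was below the filter. With E2/MPA against vehicle, 1 gene of the lists rose and 1 fell in cKO organoids, and 1 rose and 2 fell in control organoids (limma adjusted p under 0.05). Over all genes 2.71% rose and 1.48% fell in cKO, and 5.39% rose and 3.51% fell in control organoids. The median log2 hormone difference of the 37 genes was 0.04 in cKO and -0.25 in control organoids, and that of all genes tested was -0.00395 in cKO and -7.7e-04 in control organoids. In the genotype comparisons and the interaction, limma called none of the 37, and neither edgeR nor DESeq2 called any. At an unadjusted limma p under 0.05 there were 2 of the 37 under E2/MPA, 3 under vehicle and 0 for the interaction. Over all genes tested, 10.9%, 5.96% and 1.87% were under that value in the same order, so nothing is read from these counts.

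Of 8 ligands and carriers, all were tested. Furin, the protease that cuts TGF-beta from its propeptide, fell in control organoids, with 6710, 5647, 6416 and 5721 normalized counts in control E2/MPA libraries M9 to M12, against 9981, 7117, 8320.3 and 9790 in control vehicle libraries M1 to M4. The groups do not overlap, and the log2 difference is -0.51 (SE 0.13, limma adjusted p = 0.0194). In cKO organoids Furin averaged 8033 ± 906 with E2/MPA and 9926 ± 1341 with vehicle (SD, n = 4 each; log2 difference -0.30, limma adjusted p = 0.207). When limma took libraries 8 numbers apart as a replicate block, which the labels do not state, Furin passed in cKO organoids too (adjusted p = 0.0224). The call in control organoids was lost without M1 (adjusted p = 0.0701), M4 (0.0534) or M10 (0.0685), without M4, M8, M12 and M16 together (0.0576), without the 6 libraries of highest stroma marker sums (log2 difference -0.35, adjusted p = 0.113) and with a fit of only the groups compared (0.0692). The interaction was not called for Furin, so its hormone differences in the genotypes were not shown to differ. None of the 3 ligand genes was called. Tgfb1, the most studied ligand, averaged 1165 in cKO E2/MPA, 990 in control E2/MPA, 1354 in cKO vehicle and 1376 in control vehicle organoids. Tgm2, a crosslinking enzyme of the matrix and the most abundant gene of the list, averaged 36644 ± 6535 in cKO E2/MPA, 27615 ± 6581 in control E2/MPA, 22420 ± 5721 in cKO vehicle and 20988 ± 8675 in control vehicle organoids (SD, n = 4 each), with limma adjusted p of 0.237 in cKO and 0.370 in control for the hormone difference.

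Of 12 activators, 11 were tested. Itgb5, the integrin beta-5 chain that pairs with the alpha-V chain to bind the latent propeptide, was called higher in both genotypes, the single list member to be so. It had 5730, 4524, 5038 and 5576 normalized counts in cKO E2/MPA libraries M13 to M16, against 3448, 3381, 2923 and 3068 in cKO vehicle libraries M5 to M8. In control organoids it had 5046, 4119, 4350 and 4868 in E2/MPA libraries M9 to M12, against 2872, 3185, 3189 and 3304 in vehicle libraries M1 to M4. The E2/MPA and vehicle libraries are apart in both genotypes, with log2 differences of 0.70 (SE 0.09, limma adjusted p = 4.9e-04) in cKO and 0.55 (SE 0.09, limma adjusted p = 0.00186) in control organoids. The share of all genes called or apart in both genotypes was not counted, so nothing is read from Itgb5 being so in both. The 2 most abundant activators, Itgb1 and Itgav, were not called, with log2 hormone differences of -0.16 and 0.10 in cKO and -0.51 and -0.21 in control organoids. Itgb6 and Itgb8, whose pairs with the alpha-V chain release TGF-beta in epithelia, were not called either.

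Of 18 microfibril and elastic-fibre genes, 15 were tested. Fn1, encoding fibronectin, to which the large latent complex first attaches, fell in both genotypes and was the single gene of the list to pass. It had 2395, 2694, 3455 and 8123 normalized counts in cKO E2/MPA libraries M13 to M16, against 14961.5 to 23332 in M5, M7 and M8 and 9028 in M6 of the cKO vehicle group. In control organoids it had 6412, 3469, 3885 and 20078 in E2/MPA libraries M9 to M12, against 26330, 16038, 16273 and 51703 in vehicle libraries M1 to M4. The cKO groups do not overlap and the control groups do, since M12 is above M2 and M3. How many of all genes were called lower in both genotypes was not counted, so nothing is read from Fn1 passing in both. The log2 differences of Fn1 were -2.16 (SE 0.56, limma adjusted p = 0.0416) in cKO and -1.92 (SE 0.56, limma adjusted p = 0.0446) in control organoids. These calls are close to the threshold, and over the other settings on all libraries or without the libraries rich in stroma markers the adjusted p ranged from 1.0e-04 to 0.0685 in cKO and from 3.0e-04 to 0.130 in control organoids. The one in cKO was lost (adjusted p up to 0.126) when any 1 of M13 to M15, M9, M5, M7, M8 or M1 was left out, and the one in control organoids (up to 0.148) without any 1 of M13 to M15, M9 to M11, M5, M7, M4 or M1, and with edgeR the adjusted p was 0.0685 in cKO and 0.0891 in control organoids. The call in control organoids was also lost with DESeq2 (0.0793), with no filter on low values (0.0510) and with a fit of only the groups compared (0.130). Fn1 is itself made in quantity by fibroblasts, and M16, M12 and M4, the libraries with the highest stroma marker sums, were the highest of their groups. In the cKO vehicle group M8 had the highest marker sum, but its Fn1 value (23256) was just below that of M7 (23332). Whether fibroblasts were the source of these Fn1 values was not tested. With the mean stroma marker level as a covariate the log2 difference was -2.32 (adjusted p = 1.0e-04) in cKO and -1.91 (adjusted p = 3.0e-04) in control organoids, and without M4, M8, M12 and M16 it was -2.38 and -2.10. Fbln1, the most abundant of the other genes on this list, was not called, with log2 differences of 0.45 in cKO and 0.49 in control organoids (limma adjusted p = 0.488 and 0.362). Of the 3 receptor genes none was called.

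**Figure D4:**
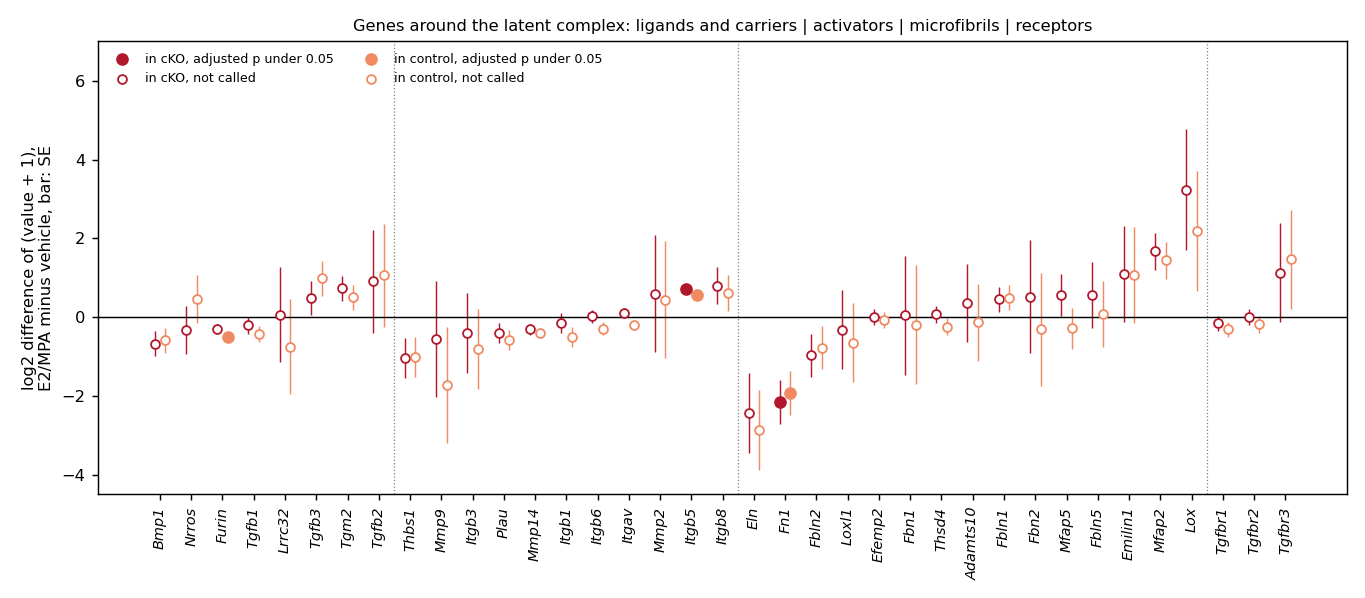
Fitted log2 differences with standard errors for E2/MPA against vehicle in cKO and in control organoids, for the tested genes of the 4 lists of the latent TGF-beta system. Filled points passed an adjusted p of 0.05 in limma; Itgb5 is filled above 0 in both genotypes, Fn1 is filled below 0 in both, and Furin is filled below 0 in control organoids.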

How the data were processed

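RNA was extracted from organoids, and 16 TruSeq libraries were sequenced on an Illumina instrument, per the labels' protocols. Alignment build GRCm39 and the tools HISAT2, featureCounts and DESeq2 are named, without versions, per the submitters' processing notes. The strandedness of the counting is not given in these sources. The deposited table holds the authors' normalized signal: every value is a whole read count, within 0.01 read, divided by 1 size factor per library. Recovered depth was 14372111 to 20016836 reads. No 2 libraries of the same group agreed within sampling noise (the lowest chi-square over its degrees of freedom was 5.79). Libraries of different groups were not compared in this way.

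Ensembl identifiers were given symbols from a gene name table (22484 of 23306 matched; the 822 without a symbol held 1.83% of reads). Transcript lengths come from GENCODE M21 on GRCm38, and promoters from RefSeq on GRCm38.p6. The counts were made on another build, so its coordinates place the promoters only.

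The main test was limma 3.58.1 in R 4.3.3 on log2(value + 1) of the 16509 genes with at least 10 normalized counts in at least 4 libraries (6797 left out), with 1 mean per group, all 16 libraries, an intensity trend and Benjamini-Hochberg adjustment at 0.05. It was tested on simulated data. A fold change on this scale understates the change of low genes. Alternatives included edgeR 4.0.16 and DESeq2 1.42.0 on the recovered reads, and leaving out each library. Genes of the 4 pathway lists were named when they passed in at least 1 comparison (at most 4 per list), and in lists with fewer than 2 such genes the 2 most abundant were named too; Tgfb1, Itgb6 and Itgb8 were named after their values were seen. For each member, the 5 tested genes with the highest Pearson r were named, leaving out predicted gene models. The members and lists were chosen with earlier results of these data known.

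Groups share no replicate number in the labels. Libraries whose numbers lie 8 apart deviated together from their group means (correlation 0.386 to 0.746). The main fit treated all libraries as independent.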

Additional observations from a re-analysis of the deposited data

Results flagged for a closer look

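In groups of 4 libraries, 1 library can stand apart from the other 3. For Ltbp3 in cKO E2/MPA organoids the highest library, M15 at 4449.9 normalized counts, was separated from the next by 0.862 of the whole range of the group, above Dixon's 95% limit for 4 values. For Ltbp4 in control vehicle organoids the highest library, M4 at 93.6 normalized counts, was separated by 0.849 of the range, and M4 also had the highest stroma marker sum of that group, 58465. The part of stroma in that value was not tested. With 4 genes in 4 groups, 16 sets of values were looked at, and chance alone marks about 1 in 20 of them.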

How the results depend on the processing

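Limits: Ltbp4 had 16 to 179 reads a library, and each group has 4 libraries. Without M1, M4, M8, M9, M12 and M16, chosen after seeing the data, some groups hold 2 libraries, which are assumed to vary like the others.

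The direction of the genotype differences of the 4 members was kept under the 15 other settings, that of their hormone differences under the 14 of these that apply (the exact test was run on genotype only), and both when 1 library was left out. Some settings could not move these differences and so do not test their direction. They are the exact test, the other filters on low values, the replicate block and the fit of only the groups compared. Leaving out a library of a group not compared could not move them either. Under E2/MPA the genotype difference of Ltbp4 had an adjusted p under the threshold with library weights (-1.72) and with stroma marker level as a covariate (-1.56). It also did without M4, M8, M12 and M16 (-1.92) and without the 6 libraries (-1.90). The exact test (-1.60) gave p = 0.0286, which is not adjusted over genes and is the smallest it allows. The control E2/MPA libraries also enter the hormone difference for which the family was chosen, so this comparison is not fully independent of that choice. Leaving out 1 library gave -1.94 to -1.30. The genotype difference of Ltbp1 under E2/MPA passed with the covariate (0.34) and without the 6 libraries (0.56). The hormone difference of Ltbp2 in control organoids was -1.57 without the 6. The interaction of Ltbp3 turned positive with library weights (0.0012) and with the covariate (1.1e-04) and was -0.12 to 0.038 when 1 library was left out; that of Ltbp2 was -0.0072 without M16 (range -0.0072 to 0.48). The cause was not tested.

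Genes called for genotype under E2/MPA numbered 185 with DESeq2, 597 with library weights, 0 with a fit of the groups compared only, 329 with the covariate, 9 without M4, M8, M12 and M16, 1394 without the 6 libraries and 0 to 10 without 1 library, against 1 in the main result. Under vehicle they numbered 14 with DESeq2, 2 with a minimum of 50, 5 with weights, 7 with the covariate, 14 without the 4, 593 without the 6 and 0 to 2 without 1 library, against 0. For the hormone effect in cKO (692 genes) they numbered 1255, 1678 with weights, 2684 with the covariate, 2288 without the 6 and 362 to 827 without 1 library, the first being DESeq2. For the hormone effect in control (1469 genes) they numbered 2549 with weights, 484 with the groups compared only, 3580 with the covariate, 2262 without the 6, 2210 without the 4 and 759 to 2230 without 1 library. The interaction gave 28 genes without the 6.

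Of the 37 pathway genes, the calls without the 6 libraries were 7 for genotype under E2/MPA, 2 under vehicle, 13 for the hormone effect in cKO and 11 in control. For the hormone effect in cKO (2 genes) there was 1 with edgeR, 10 with the covariate, 6 without the 4 and 1 to 3 without 1 library. For that in control (3 genes) there were 6 with DESeq2, 7 with weights, 1 with the groups compared only, 16 with the covariate, 10 without the 4 and 1 to 7 without 1 library. Calls over all genes moved between settings too, from 591 to 3098 in cKO and from 484 to 4479 in control organoids, apart from leaving out 1 library. The share of all genes called was not set beside each pathway count, so nothing is read from these counts.

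The replicate block of libraries 8 numbers apart, which the labels do not state, had a consensus correlation of 0.496. With it, the hormone effect had 4479 calls in control and 3098 in cKO organoids, with 1 for genotype under vehicle and, of the pathway genes, 13 in control and 10 in cKO. Furin was among those in cKO (-0.30, adjusted p = 0.0224). Each of M1 to M8 correlated best with the library 8 numbers higher, a hint from the data and not the design.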
